A study of Mus musculus with 6 samples.

Results

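The genes described here encode 10 heterogeneous nuclear ribonucleoproteins (hnRNPs), namely Hnrnpa1, Hnrnpa2b1, Hnrnpa3, Hnrnpab, Hnrnpc, Hnrnpd, Hnrnpk, Hnrnpl, Hnrnpll and Hnrnpu. They are grouped as abundant hnRNPs, though their RNA levels differed widely here. They were taken by symbol from a table of 24047 rows, where all 10 had a row, and all 10 were among the 10454 genes that passed the filter on low counts. The series holds RNA-seq of 6 libraries from mice. Of these 3 carry the label WT (wild type) and 3 the label Srsf1-cKO, whose genotype is given as Srsf1-flox/flox dLck.Cre (floxed Srsf1 with a Cre transgene driven in T cells by the distal promoter of Lck). All mice were 7 weeks old, of a strain labelled B6.129, with 3 mice for each genotype in the series' design text, and the labels do not say whether the WT mice carried floxed alleles or Cre. Naive CD4 T cells from spleen, isolated as CD4+CD62L+ cells and labelled Th0 effector cells, were activated over 72 h with anti-CD3 at 0.5 µg/mL plus anti-CD28 at 1 µg/mL. Every library of both groups also had a final 4 h of PMA, a phorbol ester, at 100 ng/mL together with 1 µM ionomycin.

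hnRNPs coat nascent transcripts in the nucleus and help decide which splice sites are used, how RNA is packaged and exported, and how stable it is. They often act against serine/arginine-rich (SR) proteins, the family of SRSF1: hnRNP A1 bound to a splicing silencer favours skipping of an exon that an SR protein bound to an enhancer would retain. In T cells hnRNP L and its paralog hnRNP LL are known for silencing variable exons of Ptprc, the gene of CD45, as cells become activated. A count over a whole gene, as measured here, does not separate an mRNA's isoforms, so nothing below is a measure of splicing.

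The libraries held between 7781283 and 10184268 gene counts, and levels are given as CPM, counts scaled to a common library size with TMM factors. Whole-gene counts of Srsf1 itself did not differ past the threshold (495 ± 42.1 against 514 ± 39.1 CPM, WT against Srsf1-cKO, SD, n = 3 each; log2 fold change 0.06, SE 0.12, edgeR adjusted p = 0.780), so groups are called by their labels and every direction is given as Srsf1-cKO label over WT label. All 7 T cell markers listed were tested, of which Cd3g rose (124 ± 35.3 to 204 ± 35.7 CPM, edgeR adjusted p = 0.0452) and 0 fell, and their summed level was 2047 to 2361 CPM in WT and 1862 to 2650 CPM in the other group. Of 25 listed markers of B, myeloid and dendritic, CD8 and NK, and erythroid cells, 13 were tested, and 6 of them rose and 0 fell. Over all tested genes, 8.90% were called higher and 9.50% lower, a background for each list here. The summed levels of these markers in WT and in the Srsf1-cKO-labelled libraries were 1.19 to 6.50 and 7.98 to 19.6 CPM for B cells, 57.9 to 83.0 and 121 to 134 CPM for myeloid and dendritic cells, and 26.3 to 43.0 and 27.9 to 47.4 CPM for CD8 and NK cells, while the 5 erythroid markers and Ncr1 were at 0 counts in every library. In the FPKM table Hba-a1 was listed at 0 in the WT libraries and at 0.331, 0.836 and 0.784 in the Srsf1-cKO-labelled ones. The CD8 and NK sum joins genes that went apart: the NK receptor genes Klrk1 (0.173 ± 0.300 to 6.81 ± 4.20 CPM, edgeR adjusted p = 0.00862) and Klrd1 (0.854 ± 0.406 to 7.92 ± 5.07 CPM, edgeR adjusted p = 0.0105) rose, and Cd8b1 stood at 30.4 ± 10.2 and 20.0 ± 3.15 CPM (edgeR adjusted p = 0.115). The myeloid and dendritic sum was not a uniform rise either, since 3 of its 6 tested genes rose and 3 were not called. Cd74, its most abundant gene, rose (log2 fold change 0.86, edgeR adjusted p = 0.0132), as did H2-Aa (2.47, edgeR adjusted p = 0.0124). H2-Ab1 did not pass and its groups overlapped (-0.29, edgeR adjusted p = 0.693). Of 8 heat shock genes, listed as a sign of sample handling, 4 fell and 0 rose. Hspa1a (log2 fold change -6.40) stood at 154, 126 and 4.49 CPM in WT and at 1.11 ± 0.203 CPM (SD, n = 3) in the other group, and Hspa1b (-6.14) at 226, 206 and 12.01 CPM against 2.11 ± 0.600 CPM, so WT replicate 3 stood apart from the other WT libraries. The alignment report gave 27.9 to 30.5 splices per 100 uniquely mapped reads in WT and 26.9 to 27.1 in the Srsf1-cKO-labelled libraries. The B cell, myeloid and dendritic, and splice values did not overlap between the groups, the CD8 and NK sums did, and the part of any of these in the results below was not tested.

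Genes of this family have many near-identical copies elsewhere in the mouse genome, and this bears on the values of some members more than others. Every stretch of 75 bases, the read length, was taken from the longest protein-coding transcript of each gene in the GENCODE M21 annotation and looked up in the transcripts of all other annotated genes on the same strand. Of the windows that lie within the coding sequence, 78.0% were shared with another gene for Hnrnpa1, 100% for Hnrnpa3, 63.8% for Hnrnpk, 19.1% for Hnrnpc and 2.67% for Hnrnpl, and 0% for the other 5 genes. Outside the coding sequence the share was 0.375% for Hnrnpa1, 10.2% for Hnrnpa3 and 0.418% for Hnrnpd, and 0% for the other 7 genes. For Hnrnpab, 25.9% of all windows matched transcripts on the opposite strand, where Phykpl lies. Phykpl held at most 49 counts in a library, while Hnrnpab held 9442 or more. The strand setting of the counting is not stated, so these counts cannot show what the overlap adds. The opposite-strand share was 13.6% for Hnrnpa1, 7.21% for Hnrnpa3, 5.03% for Hnrnpd and 1.66% for Hnrnpk, and 0% for the rest.

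**Figure D1:**
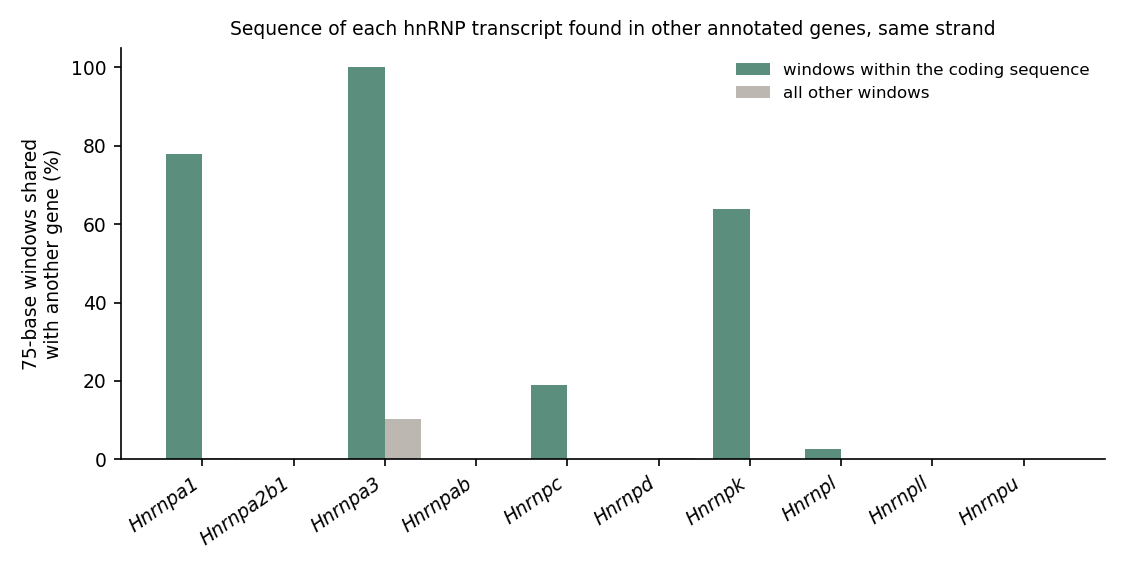
Percent of 75-base windows of each gene's longest coding transcript that occur in another annotated gene on the same strand, within the coding sequence (green) and elsewhere (grey). The coding sequences of Hnrnpa1 (78.0%), Hnrnpa3 (100%) and Hnrnpk (63.8%) are shared most.

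One sequence shows what a read cannot tell apart. It lies in the coding sequence of Hnrnpa1, from base 125 to base 199 counted from the first base of the start codon, and occurs letter for letter in 3 other annotated genes, among them the processed pseudogenes Gm10052 and Gm5643. It is read 5′ to 3′ from the GENCODE M21 transcript.
Hnrnpa1, shared: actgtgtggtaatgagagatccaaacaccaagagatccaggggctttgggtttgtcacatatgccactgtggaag

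Among the 10 genes Hnrnpd, Hnrnpa3 and Hnrnpll rose, by 1.70-, 1.66- and 1.57-fold, and Hnrnpa1 fell to 0.571-fold. In edgeR's quasi-likelihood test with Benjamini-Hochberg adjustment over all genes, 3 of 10 rose and 1 of 10 fell, where 8.90% and 9.50% of all tested genes were called in these directions (18.4% in either direction). The median log2 fold change of the 10 genes was 0.29, against 0.01 over all genes tested. The CPM values of the groups did not overlap for 7 of the 10, against 39.4% of all tested genes: 5 were higher (19.9% of all) and 2 lower (19.5% of all). On log2(FPKM + 1), limma called 4 of the 10 higher and 1 lower, against 12.3% and 6.39% of the 9617 genes tested on that scale (18.7% in either direction). The share of calls that were higher was 48.4% on TMM-scaled counts, 64.1% with library-size scaling and 65.9% on FPKM, where the median log2 fold change over all genes was 0.11 and 0.10. In bulk RNA, fewer cells that express a gene and less of its RNA per cell cannot be told apart. Leaving out WT replicate 1 left none of the 10 genes higher and none lower, and leaving out Srsf1-cKO replicate 2 left 1 higher and 0 lower, while leaving out Srsf1-cKO replicate 3 left 1 higher and 1 lower. In the first pair of fits the calls over all genes fell from 1923 to 195 and 234.

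**Figure D2:**
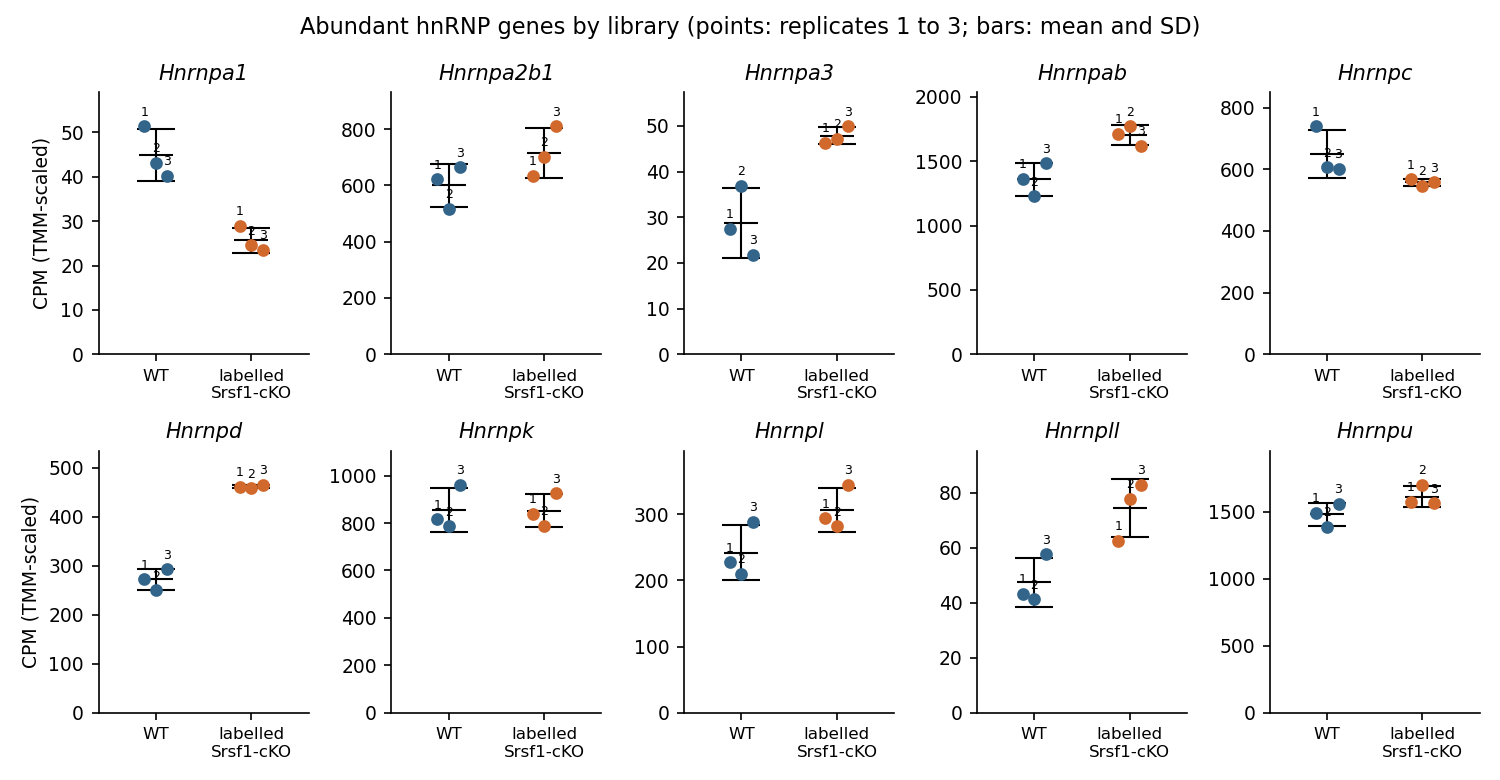
CPM of each of the 10 genes in each library, scaled by TMM, with replicate numbers beside the points and bars for the mean and SD of 3 libraries. Hnrnpd, Hnrnpa3 and Hnrnpll lie higher and Hnrnpa1 lower in all 3 Srsf1-cKO-labelled libraries than in any WT library, and the groups of Hnrnpk overlap.

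Levels per length were read from the deposited FPKM values (fragments per kilobase of transcript, scaled to the sequencing depth). In WT the order was Hnrnpk (422 ± 42.0 FPKM, SD, n = 3), Hnrnpab (413 ± 38.2), Hnrnpu (289 ± 14.6), Hnrnpc (219 ± 17.3), Hnrnpa2b1 (181 ± 20.5), Hnrnpa1 (176 ± 25.8), Hnrnpl (82.3 ± 13.7), Hnrnpd (27.8 ± 2.12), Hnrnpa3 (24.5 ± 7.21) and Hnrnpll (11.1 ± 1.94). The neighbours Hnrnpk and Hnrnpab, Hnrnpa2b1 and Hnrnpa1, and Hnrnpd and Hnrnpa3 had overlapping values among the WT libraries. The other 6 neighbouring pairs did not overlap. In the Srsf1-cKO-labelled libraries, Hnrnpab (553 ± 31.0) stood above Hnrnpk (444 ± 35.6), Hnrnpa2b1 (239 ± 31.7) above Hnrnpc (202 ± 1.82), and Hnrnpl (112 ± 11.8) above Hnrnpa1 (102 ± 11.0). This order takes each gene's own row. Summed with its copies Gm10052 and Gm5643, Hnrnpa1 stood at 496.5 ± 79.4 FPKM in WT and 551 ± 42.5 in the other group. Hnrnpa3 summed with its copy Gm6793 stood at 220 ± 32.6 and 333 ± 34.3. The places of Hnrnpa1 and Hnrnpa3 thus hold for their rows alone. So does that of Hnrnpk, whose copy Gm7964 (26.9% of its windows) was not summed with it. By their own rows, most of the 10 were among the strongly expressed genes of these cells. The WT means of the first 7 lay above those of 96.7% or more of the rows of the FPKM table, while Hnrnpll stood above 81.0%. Of these 24043 rows, 9617 reached 1 FPKM in at least 3 libraries, so the shares count many rows below that level. Reads counted on the rows of the 10, without their copies, together made up 0.501% to 0.582% of gene counts in WT. In the Srsf1-cKO-labelled libraries they made up 0.631% to 0.674%, given as a description.

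hnRNP D and hnRNP AB are close relatives. hnRNP D, also called AUF1, binds AU-rich elements in the tails of cytokine and other short-lived mRNAs and controls their decay. Hnrnpd stood at 273, 250 and 294 CPM in WT and at 462, 459 and 466 CPM in the Srsf1-cKO-labelled libraries. The latter group had an SD of 3.50 CPM, and all its values lay above the highest WT library. The log2 fold change was 0.76 (SE 0.12, edgeR adjusted p = 0.00761), or 1.70-fold with a 95% confidence interval of 1.41 to 2.04, and on log2(FPKM + 1) it was 0.85 (limma adjusted p = 0.00767). Hnrnpd had the smallest edgeR adjusted p of the 10. Without WT replicate 1 its log2 fold change was 0.75 with edgeR adjusted p = 0.0510.

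Hnrnpab encodes a protein that binds AU-rich and single-stranded sequences. It stood at 1363, 1228 and 1484 CPM in WT and at 1715, 1771 and 1621 CPM in the Srsf1-cKO-labelled libraries, so the groups did not overlap. The log2 fold change of 0.33 (SE 0.12) did not pass on the counts (edgeR adjusted p = 0.0930), and on the FPKM values it did (0.42, limma adjusted p = 0.0375). With library-size scaling alone the log2 fold change was 0.43 (edgeR adjusted p = 0.0339), on a scale where the median of all genes was 0.11. The ratio of Hnrnpab to Hnrnpd counts within a library does not depend on scaling, and it was 499%, 490% and 505% in WT against 371%, 386% and 348% in the other group. These ratios did not overlap, with a log2 difference of -0.44 and an exact two-sided permutation p = 0.1, the smallest that 3 against 3 libraries can give (adjusted p = 0.12 over the 6 ratios examined).

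The 5 genes tested whose log2 CPM followed Hnrnpd most closely over the 6 libraries, at a mean log2 CPM of at least 5, were Gorasp2, Uck2, Ppm1f, Drg1 and Dpp3, with Pearson's r between 0.993 and 0.995. Such values were common, since 344 of the 5104 genes compared had r over 0.9, and all 6 points share the group difference. Of these 5, Ppm1f (log2 fold change 0.54, edgeR adjusted p = 0.0202) and Gorasp2 (0.38, edgeR adjusted p = 0.0494) rose, and the others had adjusted p between 0.0534 and 0.0658.

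The A/B proteins hnRNP A1, A2/B1 and A3 share a pair of RNA recognition motifs and a glycine-rich tail, and shuttle between nucleus and cytoplasm. hnRNP A1 is the classical antagonist of SRSF1 in the choice of 5′ splice sites. Hnrnpa1 stood at 465, 332 and 305 counts in WT and at 268, 220 and 251 in the Srsf1-cKO-labelled libraries, or 51.4, 43.2 and 40.3 against 29.0, 24.6 and 23.6 CPM. Every Srsf1-cKO-labelled library lay below every WT library. Its log2 fold change was -0.81 (SE 0.16, edgeR adjusted p = 0.0140), or 0.571-fold with a 95% confidence interval of 0.442 to 0.738. The FPKM value of Hnrnpa1 also fell, from 204, 172 and 153 to 113, 102 and 91.4 (log2 fold change -0.78, limma adjusted p = 0.0141). The call on counts was lost without WT replicate 1 (edgeR adjusted p = 0.0715) and without Srsf1-cKO replicate 2 (edgeR adjusted p = 0.0766).

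Few reads carried this result in the count table. CPM without TMM scaling was divided by FPKM to set the tables side by side. This ratio has the unit of a length, but it also depends on how each table treats reads with several matches and is not a length that was counted. For Hnrnpa1 it was 0.250 kb, or 13.1% of the longest transcript of 1.92 kb. The same share was 23.7% for Hnrnpa3 and between 64.5% and 182% for the other 8 genes. Gm10052, whose transcript shares 44.2% of all Hnrnpa1 windows, held 0 counts in every library, and Gm5643 held at most 7.

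In the FPKM table these copies do carry values, and neither passed the test. Gm10052 stood at 184, 256 and 172 FPKM in WT and at 312, 274 and 275 in the Srsf1-cKO-labelled libraries, with a log2 fold change of 0.51 (SE 0.16) that did not pass (limma adjusted p = 0.0619). Gm5643 stood at 103, 150 and 95.1 FPKM against 173, 162 and 150 (0.50, limma adjusted p = 0.0847). Of the 3 genes that share at least 10% of the windows of Hnrnpa1, these 2 were summed with it, an alternative chosen after the values were seen, while Gm7729 (28.6% of windows) was not analysed here. The sum was 491, 578 and 420 FPKM in WT and 598, 538 and 516 in the other group. These sums overlapped, with a log2 difference of 0.16 (SE 0.14, limma adjusted p = 0.446), against -0.78 for Hnrnpa1 alone. Weighted by transcript length, the sums were 646 ± 87.5 and 628 ± 51.1 FPKM times kilobases (SD, n = 3 each, exact permutation p = 0.8). Hnrnpa1 thus made up 29.8% to 41.5% of the summed FPKM in WT and 17.7% to 19.0% in the Srsf1-cKO-labelled libraries. The fall is thus a result on the Hnrnpa1 row alone, and the sums did not pass in either direction. How the deposited FPKM values split reads that match several places is not stated in the labels, and whether the copies are transcribed was not tested.

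**Figure D3:**
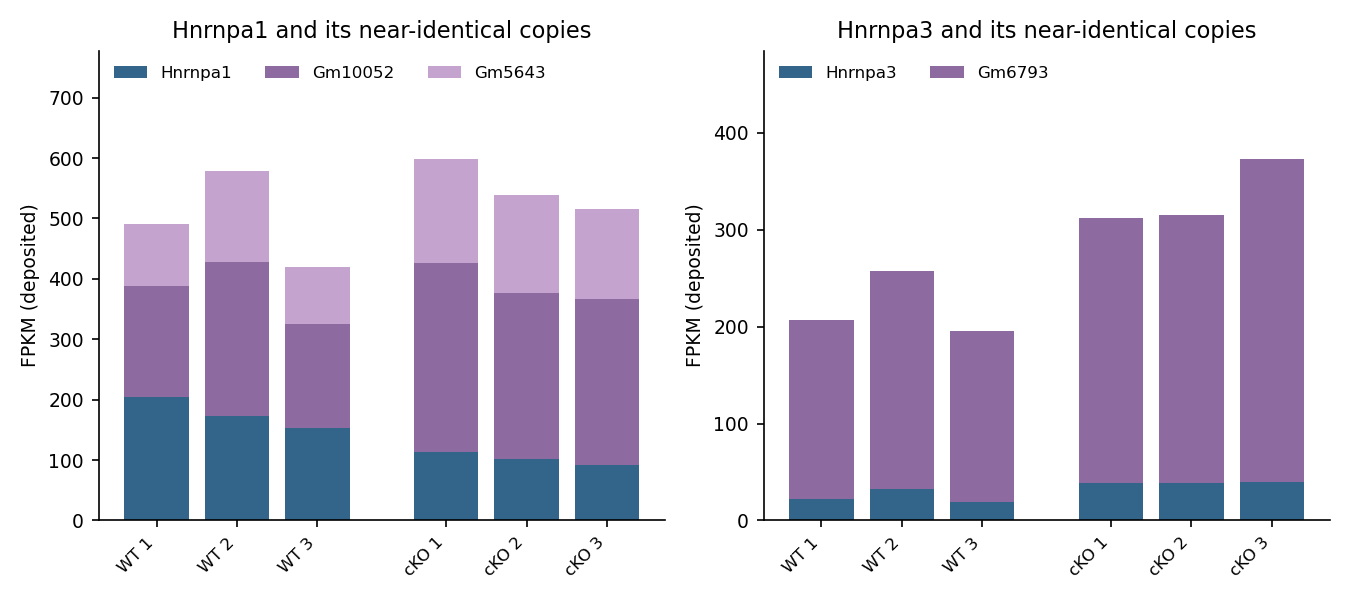
Deposited FPKM in each library for Hnrnpa1 with its copies Gm10052 and Gm5643 (left) and for Hnrnpa3 with its copy Gm6793 (right), stacked. The Hnrnpa1 part is smaller in all 3 Srsf1-cKO-labelled libraries (91.4 to 113 against 153 to 204 in WT), while the stacks of the groups overlap in height, and the stacks of Hnrnpa3 do not overlap.

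Hnrnpa3 encodes a less studied member of the A/B group. It stood at 27.5, 36.9 and 21.8 CPM in WT and at 46.4, 47.2 and 49.9 CPM in the Srsf1-cKO-labelled libraries. The WT libraries were spread widely, but all lay below the other group. The log2 fold change was 0.73 (SE 0.20, edgeR adjusted p = 0.0350), or 1.66-fold (95% confidence interval 1.22 to 2.27). Of 11 genes that share at least 10% of the windows of Hnrnpa3, 1 was analysed here, Gm6793 (20.0% of windows), and the other 10, Gm5641 with 27.9% among them, were not. Gm6793 was at 0 counts in every library and rose on the FPKM scale, from 185, 224 and 177 to 274, 277 and 333 (log2 fold change 0.59, limma adjusted p = 0.0259). The sum of both also rose, from 220 ± 32.6 to 333 ± 34.3 FPKM (log2 fold change 0.60, limma adjusted p = 0.0261), so the direction of Hnrnpa3 was the same with and without this 1 copy. The edgeR call on Hnrnpa3 was lost in 5 of the 6 fits that left out a library, with log2 fold changes of 0.55 to 0.95 and adjusted p up to 0.142, and was kept without WT replicate 2.

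Hnrnpa2b1, whose coding sequence has no shared window, did not pass. It stood at 621, 517 and 665 CPM in WT and at 634, 702 and 810 CPM in the Srsf1-cKO-labelled libraries, with overlapping groups on this scale, a log2 fold change of 0.25 (95% confidence interval -0.08 to 0.58) and edgeR adjusted p = 0.252. Both ratios of Hnrnpa1 to the other A/B genes had values that did not overlap between groups, though 3 libraries against 3 cannot give an exact p under 0.1. Counts of Hnrnpa1 were 8.28%, 8.37% and 6.06% of those of Hnrnpa2b1 in WT and 4.58%, 3.50% and 2.91% in the other group (log2 difference -1.06, exact permutation p = 0.1, adjusted p = 0.12). Against Hnrnpa3 they came to 187%, 117% and 185% in WT and to 62.5%, 52.1% and 47.2% in the other group (log2 difference -1.57, exact permutation p = 0.1, adjusted p = 0.12). The ratio of Hnrnpa3 to Hnrnpa2b1 overlapped between groups (log2 difference 0.51, exact permutation p = 0.3, adjusted p = 0.3). All these percentages compare counts and are not ratios of levels. In FPKM, Hnrnpa1, Hnrnpa2b1 and Hnrnpa3 stood at 176 ± 25.8, 181 ± 20.5 and 24.5 ± 7.21 in WT. In the other group they stood at 102 ± 11.0, 239 ± 31.7 and 38.8 ± 1.08.

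The ratio of Hnrnpa1 to Srsf1 sets the genes of these antagonists side by side, as RNA counts. Srsf1 is the targeted gene, and its whole-gene counts did not differ past the threshold. How much of that RNA was functional was not tested, and protein was not measured. Hnrnpa1 counts were 9.52%, 9.44% and 8.30% of Srsf1 counts in WT and 5.55%, 4.49% and 5.01% in the Srsf1-cKO-labelled libraries. The groups did not overlap (log2 difference -0.86, exact permutation p = 0.1, adjusted p = 0.12). The 3 ratios with Hnrnpa1 rest on the reads of the Hnrnpa1 row alone, without its copies. Their sizes compare counts and not levels: in FPKM, Srsf1 stood at 65.7 ± 3.24 in WT, below Hnrnpa1 at 176 ± 25.8.

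**Figure D4:**
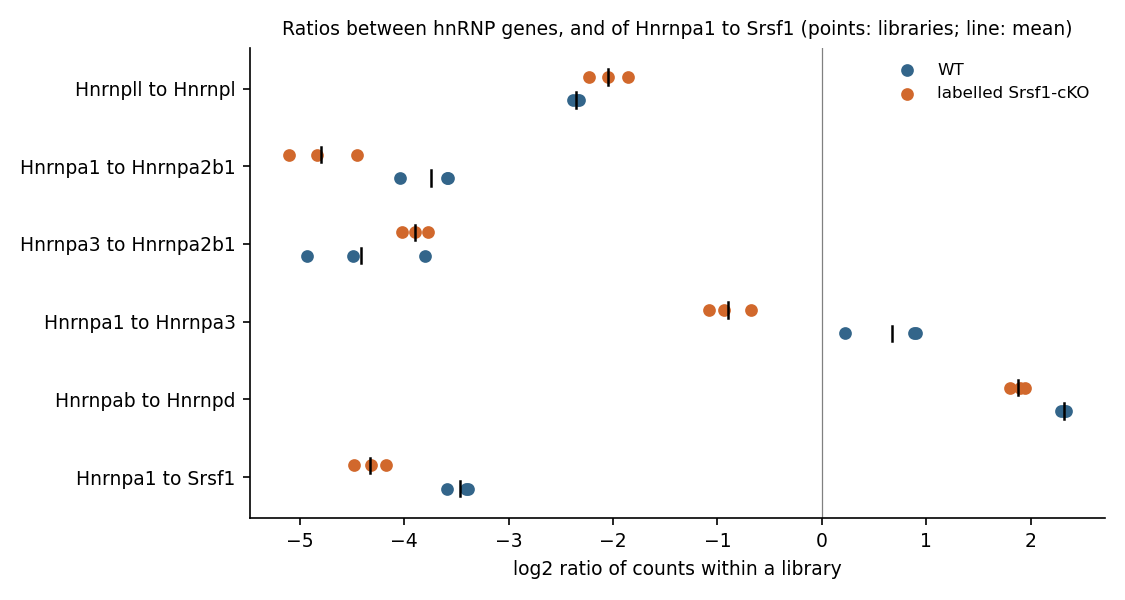
Log2 ratio of counts within each library for 5 pairs of hnRNP genes and for Hnrnpa1 with Srsf1. Points are libraries and lines are group means, and the groups do not overlap for any ratio except Hnrnpa3 to Hnrnpa2b1.

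hnRNP L and hnRNP LL bind CA-rich RNA, and hnRNP LL is induced when T cells are activated. Hnrnpll stood at 43.3, 41.2 and 57.7 CPM in WT and at 62.7, 77.9 and 83.0 CPM in the Srsf1-cKO-labelled libraries. The groups did not overlap, though the highest WT library, replicate 3, came close to Srsf1-cKO replicate 1. For Hnrnpll the log2 fold change was 0.65 (SE 0.18, edgeR adjusted p = 0.0366), or 1.57-fold (95% confidence interval 1.19 to 2.08), and 0.71 on log2(FPKM + 1) (limma adjusted p = 0.0285). No window of Hnrnpll was shared with another gene. The call was lost in 4 of the 6 fits that left out a library (adjusted p up to 0.145) and was kept without WT replicate 3 or Srsf1-cKO replicate 1.

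Hnrnpl did not pass. It stood at 227, 210 and 289 CPM in WT and at 293, 282 and 344 CPM in the other group, where WT replicate 3 lay above Srsf1-cKO replicate 2. The log2 fold change was 0.34 (95% confidence interval -0.01 to 0.69, edgeR adjusted p = 0.151), and 0.47 without WT replicate 3 (edgeR adjusted p = 0.0486). Hnrnpll counts were 19.1%, 19.7% and 20.0% of Hnrnpl counts in WT and 21.4%, 27.7% and 24.1% in the Srsf1-cKO-labelled libraries. This ratio did not overlap between groups (log2 difference 0.31, exact permutation p = 0.1, adjusted p = 0.12).

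hnRNP C forms tetramers that bind uridine tracts and measure the length of nascent transcripts. Hnrnpc stood at 740, 606 and 602 CPM in WT and at 568, 547 and 557 CPM in the Srsf1-cKO-labelled libraries. The groups did not overlap, but WT replicate 1 stood apart from the other WT libraries. Its log2 fold change of -0.22 (95% confidence interval -0.51 to 0.06) did not pass (edgeR adjusted p = 0.245).

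hnRNP K binds C-rich RNA and DNA through its KH domains, and hnRNP U, or SAF-A, holds chromatin to nuclear RNA. Hnrnpk stood at 816, 786 and 962 CPM in WT and at 839, 789 and 926 CPM in the other group, overlapping throughout. Its log2 fold change was -0.01 with a 95% confidence interval of -0.30 to 0.29, and its sign changed with the scaling (0.10 with library-size scaling, edgeR adjusted p = 0.623). Hnrnpu stood at 1493, 1389 and 1560 CPM in WT and at 1575, 1703 and 1564 CPM in the Srsf1-cKO-labelled libraries. The groups lay just apart, and the log2 fold change of 0.12 (95% confidence interval -0.14 to 0.38) did not pass (edgeR adjusted p = 0.468).

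**Figure D5:**
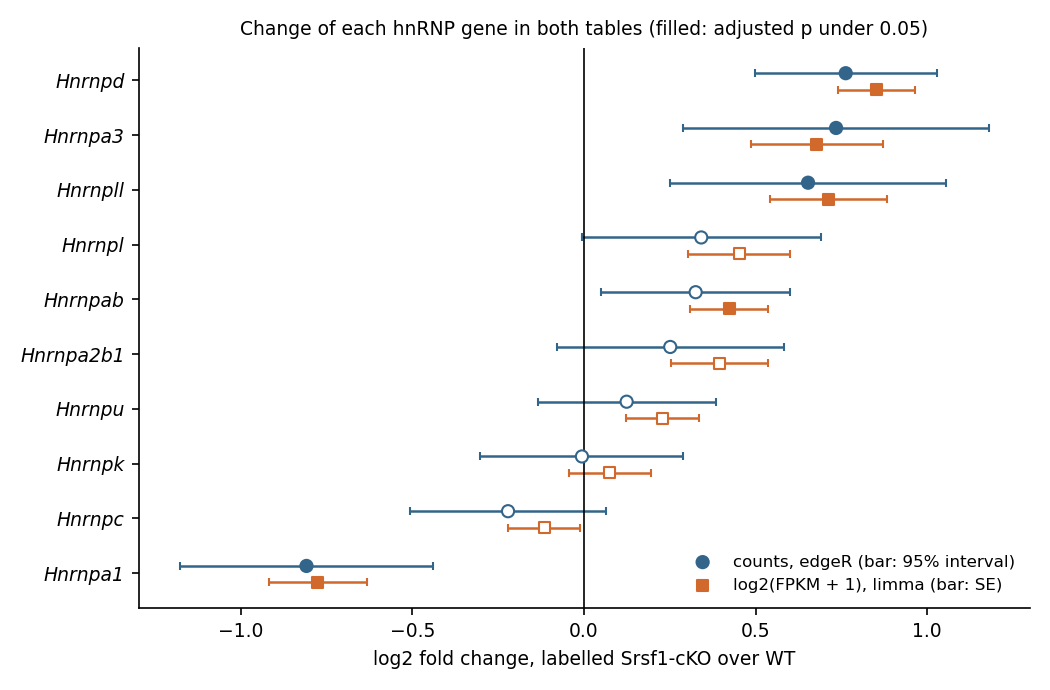
Log2 fold change of each of the 10 genes on counts (circles, 95% interval) and on log2(FPKM + 1) (squares, SE), filled where the adjusted p is under 0.05. Hnrnpd, Hnrnpa3, Hnrnpll and Hnrnpa1 are filled on both scales, and Hnrnpab on the FPKM scale alone.

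Promoters were looked at because Hnrnpd and Hnrnpa3 rose together. RefSeq's GRCm38.p6 promoter windows, from 250 bases before to 50 bases after the start, were matched by symbol for 9 of the 10 genes, and 5 motifs were searched on both strands, all chosen with the results and sequences known. CACGTG, an E-box that is its own reverse complement, was found in 2 of the 9, Hnrnpa3 and Hnrnpd, and in 7.15% of all 32851 windows of the same length. CCAAT was found in 7 of the 9 and in 37.4% of all windows. Of the others, TATAAA was found in Hnrnpab alone (13.6% of all windows), CCATTTT in Hnrnpc and Hnrnpd (5.17% of all windows), and TGACGTAA in Hnrnpa2b1 and Hnrnpa3 (0.499% of all windows). No motif of the 5 contains another, and a match describes these letters, not binding. Counts among the 9 are of genes with a match in any of their windows, while the background is a share of single windows. The 100 bases before the start are printed for the 3 called genes with a window, 5′ to 3′ on the gene's strand, with CACGTG and CCAAT, on either strand, in capitals. They lie at chr2:75659159-75659258 (plus strand) for Hnrnpa3, chr5:99978939-99979038 (minus strand) for Hnrnpd and chr15:103240297-103240396 (plus strand) for Hnrnpa1.
Hnrnpa3: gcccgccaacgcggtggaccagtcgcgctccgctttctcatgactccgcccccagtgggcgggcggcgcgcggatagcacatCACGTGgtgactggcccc
Hnrnpd: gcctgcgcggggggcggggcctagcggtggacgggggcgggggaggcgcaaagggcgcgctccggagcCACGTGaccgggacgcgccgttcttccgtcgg
Hnrnpa1: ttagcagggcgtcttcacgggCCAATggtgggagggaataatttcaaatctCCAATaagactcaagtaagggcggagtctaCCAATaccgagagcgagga
The CACGTG of Hnrnpa3 begins 18 bases and that of Hnrnpd 32 bases before the annotated start, and the printed stretch of Hnrnpa1 holds CCAAT at 3 places, the farthest beginning 79 bases before the start.

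Of 20 other genes of the hnRNP family (such as Hnrnpf, Hnrnph1, Hnrnpm and Ptbp1), 1 rose and 1 fell, where 8.90% and 9.50% of all tested genes were called in these directions. An unadjusted edgeR p under 0.05 was reached by 6 of them and by 3644 of all 10454 genes tested. The log2 fold changes of the 20 lay between -0.71 (Pcbp4) and 0.73 (Rbmx), neither called, with a median of 0.01. Syncrip, which encodes hnRNP Q, rose from 679 ± 54.0 to 1007 ± 106 CPM (log2 fold change 0.57, edgeR adjusted p = 0.0210). Pcbp2, the gene of the poly(C)-binding protein hnRNP E2 and first in the list by mean log2 CPM over all 6 libraries, fell from 1210 ± 162 to 871 ± 37.9 CPM (log2 fold change -0.47, edgeR adjusted p = 0.0401). The call on Syncrip was lost in 3 of the 6 fits that left out a library (adjusted p up to 0.102). That on Pcbp2 was lost in 5 of them and with library-size scaling, with upper-quartile scaling and on FPKM (adjusted p up to 0.161). The summed level of the 20 was 5765 to 6128 CPM in WT and 5772 to 6026 CPM in the Srsf1-cKO-labelled libraries.

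Of 20 RNA-binding genes whose proteins work with hnRNPs, 4 rose and 0 fell, beside 8.90% and 9.50% of all tested genes, and their median log2 fold change was 0.11. With 4 of 20 called in either direction, the list lay near the 18.4% of all genes. Tia1, which encodes a U-rich binding protein of stress granules and 5′ splice site selection, rose from 9.64 ± 2.13 to 37.7 ± 6.97 CPM (log2 fold change 1.97, SE 0.22, edgeR adjusted p = 0.00358). Its paralog Tial1 rose from 84.4 ± 14.4 to 130 ± 17.5 CPM (0.62, edgeR adjusted p = 0.0348). Tardbp, the gene of TDP-43, rose from 239 ± 16.8 to 421 ± 65.0 CPM (0.82, edgeR adjusted p = 0.0106), and Raver1, which encodes a partner of the splicing repressor PTBP1, rose from 68.1 ± 12.3 to 99.6 ± 5.06 CPM (0.55, edgeR adjusted p = 0.0384). Mbnl1, first in the list by mean log2 CPM over all 6 libraries, stood at 710 ± 181 and 756 ± 93.5 CPM (edgeR adjusted p = 0.761). The call on Tia1 held in all 6 fits that left out a library (adjusted p up to 0.0342), that on Tardbp in 4, on Tial1 in 2 and on Raver1 in 1.

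Of 12 genes for the import and modification of hnRNP proteins, 11 were tested and 0 passed edgeR's test, against 18.4% of all genes tested. In edgeR 1 had an unadjusted p under 0.05, as did 3644 of the 10454 genes tested. DESeq2 called 1 import gene and 2289 genes in all. Tnpo1, the gene of the importin that carries hnRNP A1 into the nucleus, stood at 340 ± 4.87 and 370 ± 31.3 CPM (edgeR adjusted p = 0.486). Of 8 genes with exons known to be under hnRNP control, 1 fell and 0 rose, beside 9.50% and 8.90% of all tested genes. Malt1, a signalling protease gene with an exon that hnRNP U and hnRNP L regulate, fell from 749 ± 38.8 to 556 ± 66.3 CPM (log2 fold change -0.43, edgeR adjusted p = 0.0485). That call was lost with library-size and upper-quartile scaling, without a filter, on FPKM, and in 5 of the 6 fits that left out a library. Ptprc stood at 2020 ± 262 and 2517 ± 125 CPM, with a log2 fold change of 0.32 that did not pass (edgeR adjusted p = 0.124), and its isoforms were not analysed here.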

How the data were processed

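Read counts per gene were deposited by the authors as whole numbers without normalization. A second deposited table, though named as counts, holds values read here, from their sizes, as FPKM. Other deposited metrics stand in an alignment report whose header gives STAR 2.4.2a, and Cufflinks and mm9 appear in the submitters' processing notes. The kit was one for stranded mRNA libraries, per the series' design text. The labels do not state the annotation, the counting program, its strand setting or its handling of reads with several matches.

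edgeR 4.0.16 (R 4.3.3) gave the main test on counts: filterByExpr, TMM factors, a quasi-likelihood fit on genotype alone, and Benjamini-Hochberg adjustment across 10454 genes. Calls needed adjusted p under 0.05, and only called genes are said to have risen or fallen. For FPKM, limma 3.58.1 was run with a trend on log2(FPKM + 1), keeping genes that reached 1 in 3 or more libraries, and folds on that scale understate changes of low genes. Ratios used counts + 0.5. Scripts were tested on simulated data. Alternatives included DESeq2 1.42.0, voom, other scalings and filters, a replicate block and each library left out. The named genes are mainly the 10, Srsf1, up to 4 called members of each list with its most abundant member, and the 5 nearest to Hnrnpd in pattern. Of marker and heat shock lists, most genes are given only as sums and counts. The members and lists were chosen with earlier results of these data known, and the copies, printed window and motifs after these values were seen. Windows were looked up in GENCODE M21 on GRCm38, not the mm9 build of the files. Replicate pairs differed by more than sampling noise (chi-square of 6.55 to 39.2 per degree of freedom). Every per-sample column was used.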

Additional observations from a re-analysis of the deposited data

How the results depend on the processing

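On counts and on filtered FPKM, the log2 fold changes of Hnrnpa1, Hnrnpa3, Hnrnpd and Hnrnpll kept their signs under 16 alternatives each, and those of their calls that were lost were lost by leaving out a library. That of Hnrnpk, -0.01, was 0.0761 on FPKM, 0.10 with library-size scaling, 0.0114 with upper-quartile scaling, and -0.07 to 0.0708 with single libraries left out (0.0048, 0.05 and 0.0708 without Srsf1-cKO replicate 1, Srsf1-cKO replicate 2 and WT replicate 3). With single libraries left out, signs also turned for Srsf1 (-0.0047 without WT replicate 2, to 0.115), Mbnl1 (-0.0638 when WT replicate 1 was dropped, -0.01 when Srsf1-cKO replicate 3 was, and up to 0.2962) and Thy1 (-0.19 without Srsf1-cKO replicate 3, to 0.1947). The cause was not tested. With copies summed, an alternative added after the data were seen, the FPKM log2 fold change of Hnrnpa1 was 0.16 in place of -0.78, and the cause was not tested. Without a filter on FPKM, the log2 fold changes of Hnrnpa3 (0.68), Hnrnpab (0.42) and Hnrnpll (0.71) no longer passed, with more genes tested.

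Genes called numbered 1923, and 279 and 2972 at adjusted p under 0.01 and 0.1, and 195 to 1989 with single libraries left out. Of the 10 genes, 0 to 3 were higher and 0 to 1 lower with single libraries left out, and 1 was higher and 0 lower at adjusted p under 0.01. With single libraries left out, 0 to 3 other hnRNP genes, 1 to 4 associated genes, 0 import genes and 0 to 2 genes with controlled exons were called. The first list had 1 call with upper-quartile scaling in place of 2, the import list 1 with RLE scaling and 1 with DESeq2 in place of 0, and the last list 0 with upper-quartile and library-size scaling and 2 with DESeq2 in place of 1.

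The labels number the replicates in both groups. Over 8132 genes the deviations of same-numbered libraries correlated at 0.33, 0.01 and 0.32, and those of the other pairs at -0.40 to 0.24. Replicates 1 and 3 thus correlated above every other pair, while WT replicate 2 correlated best with Srsf1-cKO replicate 1 (0.24). Deviations from a group mean are not independent of each other. The main fit did not take the numbers as pairs, and whether they are pairs was not tested. With the replicate block 2270 genes were called, 4 of the other hnRNP genes in place of 2 and 2 of the genes with controlled exons in place of 1, and no call among the 10 genes changed. The log2 differences of the 6 ratios kept their signs on FPKM and with each library left out. A replicate block cannot change these differences, since each number occurs once in each group. All 6 ratios took each gene's own row, without copies. Summed with its copies, Hnrnpa1 did not fall, at 496.5 ± 79.4 FPKM in WT and 551 ± 42.5 in the other group, with overlapping values.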
